A study of Mus musculus with 6 samples.

Results

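The genes described here are the cadherins and protocadherins of the mouse retina, adhesion proteins of the cell surface. They were taken as every listed gene whose symbol starts with Cdh and a digit or with Pcdh, which gave 50 of 11339 genes. Of these, 14 were classical cadherins, 23 clustered protocadherins, 11 non-clustered protocadherins and 2 cadherins of neither kind, *Cdh13* and *Cdh23*. Another 42 symbols of the same form are annotated in the mouse genome and were not analysed here: 4 classical cadherins, 3 other cadherins, 34 clustered protocadherins and 1 non-clustered protocadherin. The table held only genes that had passed a minimum of 5 CPM (reads scaled to library size) in at least 5 samples, so that genes expressed in few retinal cells may be missing from it.

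RNA was sequenced from retinas of mice without the histone methyltransferase MLL1 in the retinal lineage and from wild-type mice, to relate changes in the cells that make up the retina to gene expression by cell type. The 3 *Mll1KO* samples (genotype MLL1 fl/fl, Chx10-Cre) and the 3 WT samples (wild type), all labelled as strain C57Bl6/J, were biological replicates of P14 retina, and each pooled 2 retinas from mice of either sex. In this line Cre acts in retinal progenitor cells, part of the *Mll1* transcript with the floxed exons is still present at this age, and cells that do not descend from retinal progenitors, such as those of blood vessels, are not targeted. The WT mice carried neither Cre nor floxed alleles, so that effects of the transgene and of the deletion cannot be told apart.

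Cadherins bind calcium and hold cells together through their outer domains, mostly by pairing with the same cadherin on the neighbouring cell. Classical cadherins are tied to actin inside the cell by catenins and form adherens junctions, and in the retina type II classical cadherins help bipolar and ganglion cells to find their synaptic layers. Clustered protocadherins are made from neighbouring promoters that each neuron chooses among, which gives a neuron a surface identity and keeps its own branches apart, whereas non-clustered protocadherins are separate genes that act in axon outgrowth, cell sorting and synapses.

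The library totals behind the deposited values were inferred from those values. They were 23836033, 19777205 and 19323512 reads for WT a, b and c, and 23348923, 19855963 and 17961097 for *Mll1KO* a, b and c. Expression is given as RPKM, reads scaled to the exon length of the gene and to the library total. The members had between 93 and 13319 reads in a library. Their median RPKM was 4.40, against 9.41 over all listed genes. *Kmt2a*, the gene that Cre deletes and the present name of *Mll1*, had an RPKM of 36.1, 36.9 and 34.6 in WT samples a to c and of 22.9, 20.4 and 22.3 in *Mll1KO* samples a to c. Every *Mll1KO* sample was below every WT sample, the direction the labels state, and the remaining signal includes exons outside the deleted part and transcript that was not recombined. It fell by 0.71 on the log2 scale (standard error 0.05, limma adjusted p = 2.74e-05).

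Retinal identity was checked with 10 rod genes, which were all listed. Together they summed to an RPKM of 14677, 13718 and 14196 in WT samples a to c and of 17921, 18203 and 17607 in *Mll1KO* samples a to c, so that rod RNA was abundant in every library. None of the 5 lens genes looked for (*Mip*, *Lim2*, *Bfsp1*, *Bfsp2* and *Crygs*) was listed.

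Among the 50 members, 17 fell and 1 rose in *Mll1KO* (limma on log2(RPKM + 0.1), adjusted p under 0.05 over all 11339 genes), and 32 did not pass. The members that passed were 36.0% of the list, where 23.4% of all genes passed. By direction, 34.0% of the members fell, against 14.5% of all genes, and 1 of 50 rose, against 8.85% of all genes. In 22 members all *Mll1KO* samples lay below all WT samples, which is 44.0% and compares with 26.5% of all genes, and in 2 members all lay above, with 14.6% of all genes. The median log2 fold change of the members was -0.14, and that of all genes was -0.03. Whether the members differ from other genes of like length or level was not tested. These are bulk samples, in which fewer cells of a type and less RNA per cell cannot be told apart.

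The number of members that fell was smaller with fewer samples per fit: it was 9 without WT b or without *Mll1KO* b, 10 without WT a or WT c, 11 without *Mll1KO* c and 15 without *Mll1KO* a, while 1 member rose in each of these fits. Of all genes 2650 passed, and 1687 without WT b and 1759 without *Mll1KO* c. With all libraries, 1647 fell and 1003 rose at the deposited scaling, so that 37.8% of the calls were higher. Scaling factors from all genes moved this split to 53.3% (median of ratios), 51.2% (upper quartile) and 52.1% (trimmed mean), with 12, 14 and 12 of 50 members lower and 1 higher, beside 1124, 1186 and 1160 of all genes lower. A scaling that sets the summed rod genes equal in all libraries shifted the median of all genes by -0.33 to -0.36 on the log2 scale. With that scaling the members' median was -0.47, 46 of 50 members passed as lower and 0 as higher, beside 9736 of all 11339 genes as lower and 192 as higher (1.93% of the calls).

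**Figure D1:**
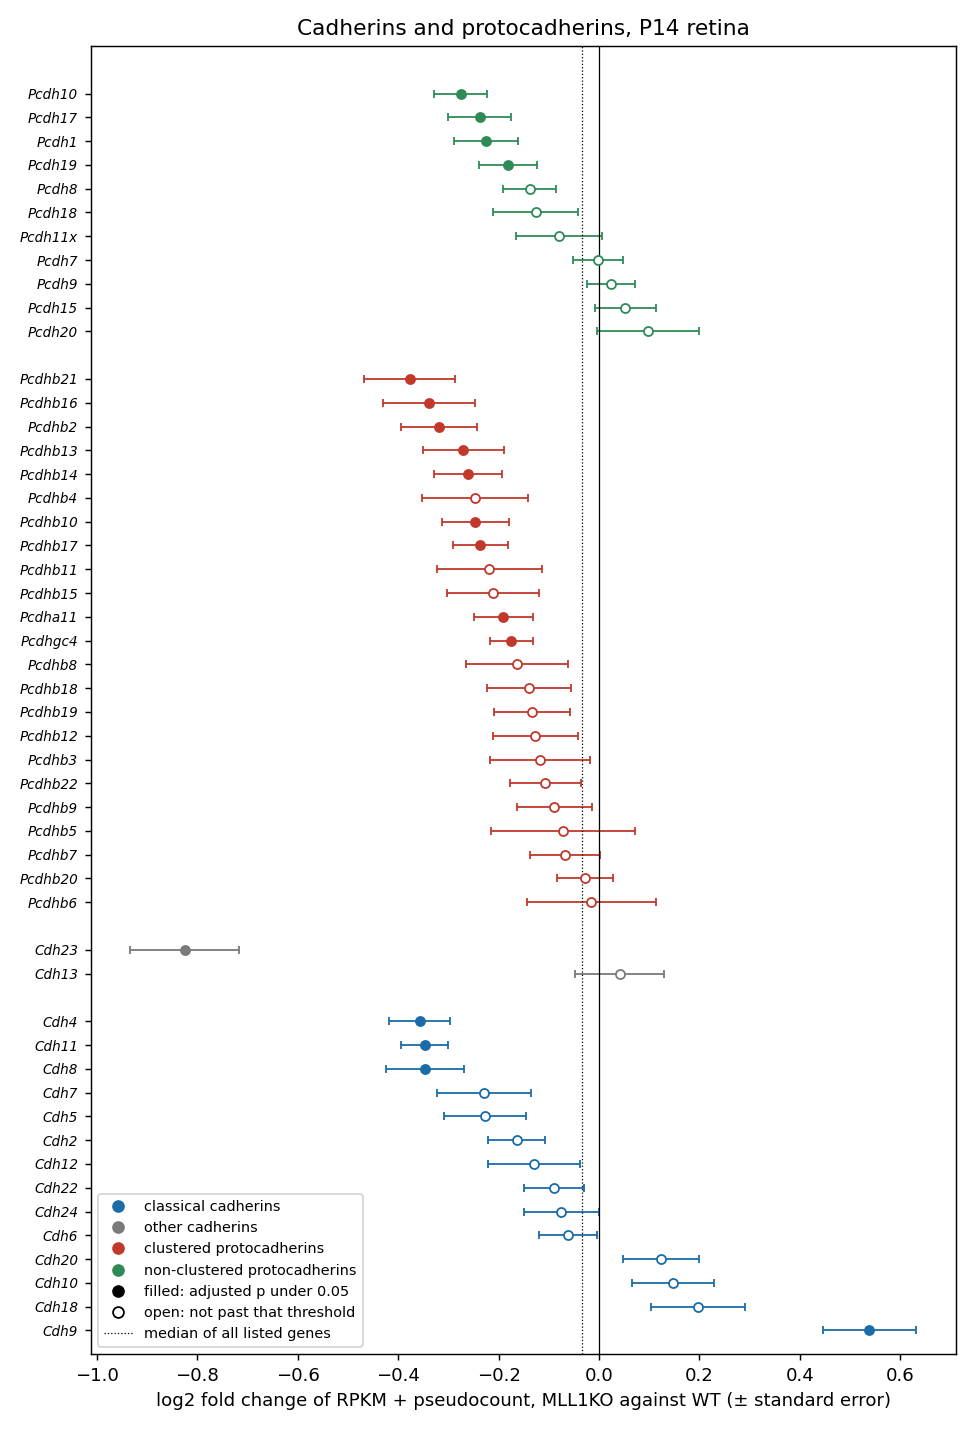
Log2 fold change of each of the 50 members between *Mll1KO* and WT (points, with the standard error as bars; 3 samples per genotype), by class. Filled points passed an adjusted p of 0.05 and the dotted line is the median of all listed genes at -0.03; *Cdh23* is lowest at -0.83 and *Cdh9* highest at 0.54 with the deposited scaling.

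Of the 14 classical cadherins, 3 fell (*Cdh4*, *Cdh8* and *Cdh11*), 1 rose (*Cdh9*) and 10 did not pass, with a median log2 fold change of -0.11. The 4 that passed are 28.6% of the class, near the 23.4% of all genes. The 14 genes together summed to an RPKM of 108, 104 and 104 in WT samples a to c and of 95.4, 94.9 and 96.7 in *Mll1KO* samples a to c. The sum was lower in each *Mll1KO* sample than in each WT sample.

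Type I and type II genes make up this class. Type I cadherins, of which *Cdh2* and *Cdh4* were listed, mediate strong adhesion at adherens junctions. *Cdh2* (N-cadherin) joins neural progenitors, photoreceptors and Müller glia at the outer limiting membrane and was the most abundant classical cadherin. Its RPKM was 21.8, 20.7 and 19.1 in WT samples a to c and 17.6, 19.0 and 18.4 in *Mll1KO* samples a to c. WT c, the lowest WT sample, was just above *Mll1KO* b, the highest of the knockouts. The difference was -0.16 on the log2 scale (standard error 0.06) and did not pass (limma adjusted p = 0.0630). It passed with limma-voom on reads (adjusted p = 0.0311), with a variance trend on reads (limma adjusted p = 0.0301), without WT c (limma adjusted p = 0.0288) and with rod scaling (limma adjusted p = 1.61e-05); the limma adjusted p ranged from 1.61e-05 to 0.177 over 18 settings.

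*Cdh4* (R-cadherin) is known from the developing retina, where it takes part in the guidance of the vessel network along astrocytes. Its RPKM was 13.7, 13.0 and 12.5 in WT samples a to c and 10.6, 10.5 and 9.44 in *Mll1KO* samples a to c. All 3 knockouts were below all 3 WT samples, with *Mll1KO* c the lowest. The mean was 13.1 ± 0.567 (SD, n = 3) for WT and 10.2 ± 0.653 (SD, n = 3) for the knockouts, 78.0% of the WT mean. It fell by 0.36 on the log2 scale (95% interval -0.49 to -0.22, limma adjusted p = 0.00285) and passed in each of the 18 settings tried, with adjusted p of at most 0.0138.

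Type II cadherins were represented by 12 genes, of which 2 fell (16.7%) and 1 rose (8.33%). These shares are near those of all genes, of which 14.5% fell and 8.85% rose. *Cdh11*, first known from osteoblasts and also made by neural and glial precursors, had an RPKM of 17.3, 17.3 and 16.4 in WT samples a to c and of 13.3, 13.0 and 13.7 in *Mll1KO* samples a to c. The samples of each genotype lay close together and the groups were far apart. The mean was 17.0 ± 0.494 (SD, n = 3) for WT and 13.3 ± 0.356 (SD, n = 3) for the knockouts. It fell by 0.35 on the log2 scale (95% interval -0.45 to -0.24, limma adjusted p = 0.000804).

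*Cdh8* and *Cdh9* mark separate types of bipolar cells, the interneurons that carry signals from photoreceptors to the inner retina, and steer their axons to different layers. The RPKM of *Cdh8* was 4.30, 4.12 and 4.59 in WT samples a to c and 3.24, 3.25 and 3.68 in *Mll1KO* samples a to c. Each knockout was below each WT sample, with *Mll1KO* c nearest to WT. *Cdh8* fell by 0.35 on the log2 scale (95% interval -0.52 to -0.17, limma adjusted p = 0.0106), to 78.2% of WT. *Cdh9* went the other way, from an RPKM of 2.27, 2.32 and 2.35 in WT samples a to c to 3.13, 3.94 and 3.20 in *Mll1KO* samples a to c. The WT samples were nearly equal, all knockouts were higher, and *Mll1KO* b stood above the other 2. Its mean reached 148% of WT, with a log2 fold change of 0.54 (95% interval 0.33 to 0.75, limma adjusted p = 0.00300). With rod scaling *Cdh9* was at 0.21 and did not pass (limma adjusted p = 0.0511), which is the only setting of 18 in which it did not, and *Cdh8* and *Cdh11* passed in all 18.

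The other type II cadherins did not pass. *Cdh5* (VE-cadherin), the cadherin of endothelial junctions, had an RPKM of 7.63, 6.11 and 6.52 in WT samples a to c and of 5.91, 5.57 and 5.71 in *Mll1KO* samples a to c. The knockouts were again all lower, with WT a well above the other WT samples. The difference of -0.23 on the log2 scale did not pass (limma adjusted p = 0.0727), and it moved both ways with the library left out: without WT a it was -0.14 (limma adjusted p = 0.196) and without WT b -0.29 (limma adjusted p = 0.0468), within a range of adjusted p from 4.07e-05 to 0.196 over the settings. *Cdh7* was at -0.23 on the log2 scale (limma adjusted p = 0.107). *Cdh6*, *Cdh12*, *Cdh22* and *Cdh24* lay between -0.13 and -0.06 with overlapping groups. *Cdh10*, *Cdh18* and *Cdh20* lay between 0.12 and 0.20, turned negative with rod scaling (-0.15, -0.13 and -0.21, where *Cdh20* passed with limma adjusted p = 0.0435), and only *Cdh10* had all knockouts above WT. *Cdh18* went from 0.20 to 0.09 without WT b, and *Cdh20* from 0.12 to 0.08 without WT a and 0.05 without *Mll1KO* c.

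Several classical cadherins are neighbours in the genome. In GRCm38, *Cdh8* (chr8:99024471-99416471), *Cdh11* (chr8:102632095-102785642) and *Cdh5* (chr8:104101625-104144511) follow one another on chromosome 8. All 3 had lower means in *Mll1KO*, as did 6765 of all 11339 genes, and *Cdh5* did not pass. *Cdh13*, a cadherin of another kind further along this chromosome (chr8:118283733-119324921), was at 0.04 on the log2 scale. On chromosome 15, *Cdh6*, *Cdh9*, *Cdh10*, *Cdh12* and *Cdh18* lie between 13028701 and 23474418. There the fold changes had both signs, with *Cdh9* (chr15:16728756-16857094) at 0.54 between *Cdh6* at -0.06 and *Cdh10* at 0.15 on the log2 scale.

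**Figure D2:**
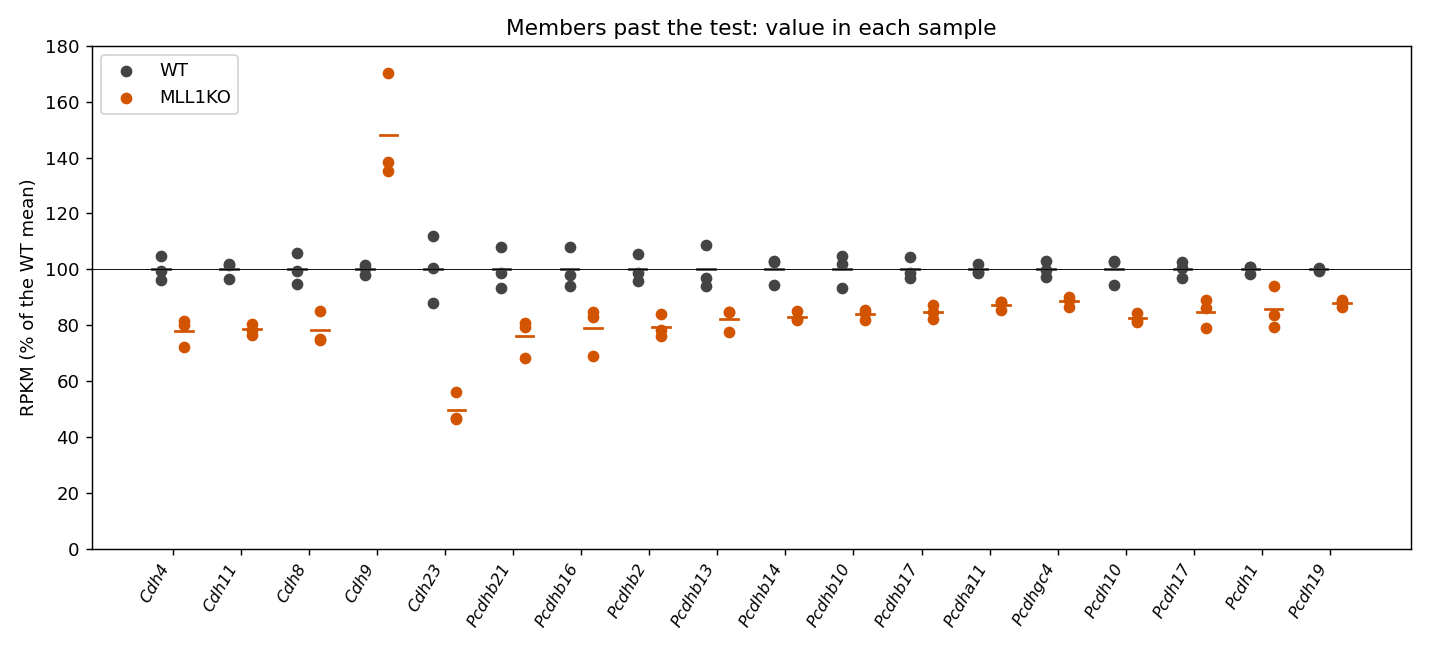
RPKM of the 18 members that passed the test in each of the 3 WT and 3 *Mll1KO* samples, as percent of the gene's WT mean (points; horizontal bars are group means). *Mll1KO* means run from 49.7% for *Cdh23* to 148% for *Cdh9*, and in each of these genes the 2 groups do not overlap.

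*Cdh23* showed the largest fold change of the 50 members with the pseudocount of 0.1; with a pseudocount of 1 it was at -0.32 and behind *Cdh9* (0.41), *Cdh4* and *Cdh11* (both -0.33). It codes for cadherin 23, which pairs with protocadherin 15 in the tip links of hair cells in the inner ear, is placed at synapses and calyceal processes of photoreceptors, and is mutated in Usher syndrome. Its RPKM was 0.575, 0.731 and 0.657 in WT samples a to c and 0.367, 0.303 and 0.306 in *Mll1KO* samples a to c. Behind these values stood 232, 245 and 215 reads of the WT libraries and 145, 102 and 93 of the knockouts. The highest knockout, sample a, was well below the lowest WT sample, also sample a. The mean was 0.654 ± 0.0784 (SD, n = 3) for WT and 0.325 ± 0.0359 (SD, n = 3) for the knockouts, or 49.7% of the WT mean. The log2 fold change was -0.83 (95% interval -1.07 to -0.58, limma adjusted p = 0.000702), on a scale that understates changes of such low values. It passed in all 17 settings that kept the gene, and the filter at a mean RPKM of 1 removed it. *Cdh13* (T-cadherin), which is anchored to the membrane by a lipid and has no catenin-binding tail, had an RPKM of 3.35, 2.85 and 3.49 in WT samples a to c and of 3.51, 3.30 and 3.14 in *Mll1KO* samples a to c. The groups overlapped fully (log2 fold change 0.04, limma adjusted p = 0.775), and the sign turned without WT b (-0.04) and with rod scaling (-0.28, limma adjusted p = 0.00916).

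Partners of *Cdh23* and *Pcdh15*, the proteins of the Usher network, were listed with 5 genes, of which 1 fell, 1 rose and 3 did not pass; among all genes 14.5% fell and 8.85% rose. *Myo7a*, a myosin that anchors the network to actin and carries cargo in photoreceptors and pigment epithelium, had an RPKM of 23.8, 23.8 and 22.1 in WT samples a to c and of 18.5, 16.1 and 17.0 in *Mll1KO* samples a to c. The groups were clearly apart. It fell by 0.43 on the log2 scale (standard error 0.06, limma adjusted p = 0.000822). *Adgrv1*, a very large receptor of ankle links and of the photoreceptor cilium, had an RPKM of 6.67, 7.29 and 7.26 in WT samples a to c and of 8.60, 7.99 and 8.52 in *Mll1KO* samples a to c, again without overlap. It rose by 0.24 on the log2 scale (standard error 0.06, limma adjusted p = 0.0193), but was at -0.09 with rod scaling (limma adjusted p = 0.290) and did not pass without WT a (limma adjusted p = 0.0607) or *Mll1KO* c (limma adjusted p = 0.0688). The scaffold gene *Whrn* was the most abundant of the list and had a log2 fold change of -0.01 (limma adjusted p = 0.883), which turns positive with the 3 factors from all genes (0.02 each), without WT a (0.01) and without *Mll1KO* c (0.02).

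The clustered protocadherins lie in the alpha, beta and gamma clusters on chromosome 18. Each beta gene is a single exon with its own promoter, while each alpha and gamma isoform joins its own first exon to exons shared by the cluster. Listed were 21 beta genes and 1 gene each for alpha (*Pcdha11*) and gamma (*Pcdhgc4*). Of the 23, 9 fell, 0 rose and 14 did not pass. At an unadjusted p under 0.05 the counts were 11 lower and 0 higher, beside 2638 and 1544 of all 11339 genes. Limma-voom on reads called 9 lower and 0 higher, beside 1823 and 1082 of all genes. The 9 are 39.1% of the class, beside 14.5% of all genes that fell, and whether the classes differ was not tested. The class median was -0.17 on the log2 scale. All 23 had a lower mean in *Mll1KO* with the deposited scaling, as did 6765 of all 11339 genes, and 21 did with the factors from all genes, where *Pcdhb6* and *Pcdhb20* turned to between 0.00 and 0.02. With 1 library left out *Pcdhb6* was at 0.08 without WT c, 0.08 without *Mll1KO* a and 0.03 without *Mll1KO* b, and *Pcdhb5* at 0.00 without WT c and 0.04 without *Mll1KO* a, so that 21, 21 and 22 means were lower without WT c, *Mll1KO* a and *Mll1KO* b. The number that fell was 4 without WT a, WT c or *Mll1KO* b, 3 without WT b, 5 without *Mll1KO* c and 8 without *Mll1KO* a.

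Reads of these genes are uncertain in their assignment. The exon length behind the RPKM of *Pcdha11* was 24670 bases, while the gene has 5359 exon bases in the GENCODE vM21 annotation and the 14 genes of the alpha cluster together have 40755. For *Pcdhgc4* the length was 26094 bases, against 5596 for the gene and 70891 for the 22 genes of the gamma cluster. Both rows thus cover far more sequence than the named isoform and cannot be read as *Pcdha11* or *Pcdhgc4* alone. Of the exon bases, 53.4% in *Pcdha11* and 37.9% in *Pcdhgc4* are shared with other genes of their cluster. Of the stretches of 50 bases in beta exons, the length of a read, between 1.80% (*Pcdhb13*) and 11.3% (*Pcdhb21*) also occur in another gene, and in *Pcdhb12*, which overlaps another gene model in 63.5% of its exon bases, 64.2% do.

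The row named *Pcdhgc4* was the most abundant of the class, with an RPKM of 21.4, 20.8 and 20.3 in WT samples a to c and of 18.0, 18.5 and 18.7 in *Mll1KO* samples a to c. All knockouts were below all WT samples. Gamma protocadherins keep the branches of starburst amacrine cells apart and are needed for the survival of many retinal neurons. The row fell by 0.17 on the log2 scale (95% interval -0.27 to -0.08, limma adjusted p = 0.0178), and did not pass without WT a (limma adjusted p = 0.0522) or WT b (limma adjusted p = 0.0589), or with median-of-ratios (limma adjusted p = 0.0564) or trimmed-mean factors (limma adjusted p = 0.0514). The row named *Pcdha11*, from the cluster whose proteins act in axon projection, had an RPKM of 5.31, 5.48 and 5.33 in WT samples a to c and of 4.59, 4.75 and 4.75 in *Mll1KO* samples a to c. The gap between the groups was wide compared with the spread inside them. It fell by 0.19 on the log2 scale (95% interval -0.32 to -0.06, limma adjusted p = 0.0415), but passed in only 8 of 18 settings and in none that left out a library, where the adjusted p lay between 0.0760 (without WT a) and 0.134 (without WT b), with 0.0857 without WT c and 0.0883, 0.0775 and 0.0886 without *Mll1KO* a, b and c. The other losses were with the 3 factors from all genes (limma adjusted p = 0.0842, 0.0827 and 0.0807) and with a replicate block (0.0775).

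In the beta cluster 7 of 21 genes fell (33.3%, where 14.5% of all genes fell). These were *Pcdhb2*, *Pcdhb10*, *Pcdhb13*, *Pcdhb14*, *Pcdhb16*, *Pcdhb17* and *Pcdhb21*. The 21 genes together summed to an RPKM of 90.6, 92.1 and 95.0 in WT samples a to c and of 82.2, 80.2 and 84.1 in *Mll1KO* samples a to c. Each *Mll1KO* sum was below each WT sum. *Pcdhb21* had the largest fold change, with an RPKM of 2.59, 2.23 and 2.36 in WT samples a to c and of 1.64, 1.90 and 1.93 in *Mll1KO* samples a to c. *Mll1KO* a was the lowest sample and the groups did not overlap. The gene fell by 0.38 on the log2 scale (95% interval -0.58 to -0.17, limma adjusted p = 0.0158), and did not pass without WT a, the highest sample (log2 fold change -0.32, limma adjusted p = 0.0610).

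*Pcdhb16* had an RPKM of 4.64, 5.35 and 4.84 in WT samples a to c and of 4.10, 3.41 and 4.19 in *Mll1KO* samples a to c. Sample b was the highest of the WT and the lowest of the knockouts. It fell by 0.34 on the log2 scale (limma adjusted p = 0.0249), with -0.28 without WT b (limma adjusted p = 0.0959), -0.35 without WT c (limma adjusted p = 0.0523) and -0.25 without *Mll1KO* b (limma adjusted p = 0.0683). With a replicate block it did not pass (limma adjusted p = 0.0574). *Pcdhb2* had an RPKM of 2.92, 2.73 and 2.65 in WT samples a to c and of 2.16, 2.11 and 2.33 in *Mll1KO* samples a to c. All knockouts were lower, and the log2 fold change was -0.32 (limma adjusted p = 0.0145; without WT a 0.0551).

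*Pcdhb17*, the most abundant beta gene, had an RPKM of 9.97, 9.79 and 10.5 in WT samples a to c and of 8.57, 8.81 and 8.29 in *Mll1KO* samples a to c. The lowest WT sample, b, was above the highest knockout, also b. It fell by 0.24 on the log2 scale (95% interval -0.36 to -0.11, limma adjusted p = 0.0126; without *Mll1KO* c 0.0517). The RPKM of *Pcdhb10* was 4.52, 4.93 and 5.06 in WT samples a to c and 3.96, 4.08 and 4.14 in *Mll1KO* samples a to c. For *Pcdhb14* it was 3.97, 4.31 and 4.34 in WT and 3.58, 3.44 and 3.45 in *Mll1KO*, in the same order of samples. For *Pcdhb13* it was 3.16, 3.07 and 3.55 in WT and 2.76, 2.52 and 2.76 in *Mll1KO*. In these 3 genes too the highest knockout was below the lowest WT sample. Their log2 fold changes were -0.25, -0.26 and -0.27 (limma adjusted p = 0.0264, 0.0201 and 0.0362).

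With 1 library left out the log2 fold changes of these 3 genes stayed between -0.31 and -0.21, while several calls were lost with fewer samples per fit. *Pcdhb10* did not pass without WT b or c (limma adjusted p = 0.0913 and 0.0874) or without *Mll1KO* a, b or c (0.0597, 0.0597 and 0.0596). *Pcdhb14* did not pass without WT b or c (limma adjusted p = 0.0773 and 0.0659) or without *Mll1KO* b or c (0.0559 and 0.0633). *Pcdhb13* did not pass without WT a, b or c (limma adjusted p = 0.0664, 0.0524 and 0.115), without *Mll1KO* b or c (0.106 and 0.0695), or with the 3 factors from all genes (0.0569, 0.0520 and 0.0551). Of the 14 beta genes that did not pass, *Pcdhb4*, *Pcdhb11* and *Pcdhb15* were lowest, between -0.25 and -0.21 on the log2 scale, and *Pcdhb6* was nearest to 0 at -0.02. Without *Mll1KO* a *Pcdhb11* passed (log2 fold change -0.32, limma adjusted p = 0.0343), and without *Mll1KO* c *Pcdhb8* passed (log2 fold change -0.29, limma adjusted p = 0.0379).

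Along chromosome 18 the beta genes that fell were spread over the cluster from *Pcdhb2* (chr18:37294812-37297624) to *Pcdhb21* (chr18:37513621-37518325), and genes that did not pass stood between them. From *Pcdhb3* to *Pcdhb9*, 7 genes in a row did not pass. *Pcdhb13* and *Pcdhb14* are neighbours that both fell, as are *Pcdhb16* and *Pcdhb17*. *Pcdhb20* (log2 fold change -0.03), with an RPKM of 7.44, 7.16 and 7.36 in WT samples a to c and of 7.24, 7.39 and 6.90 in *Mll1KO* samples a to c, stood beside *Pcdhb21*. Differences between single beta genes were not tested.

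**Figure D3:**
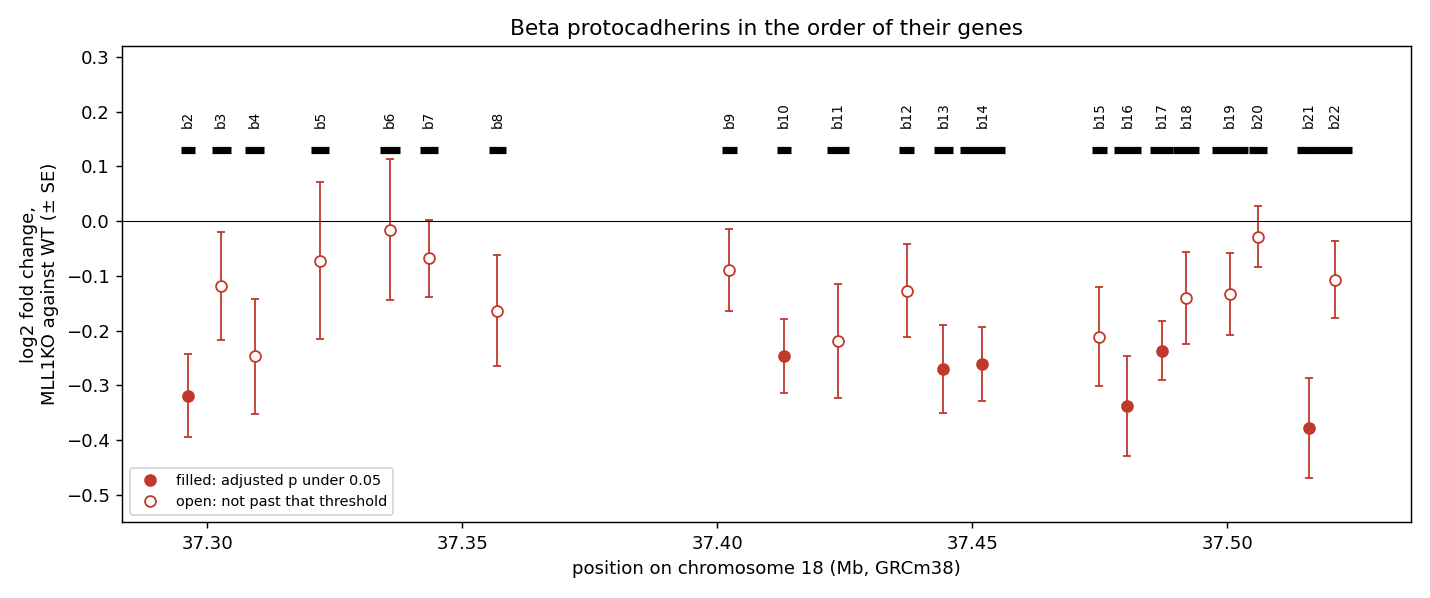
Log2 fold change between *Mll1KO* and WT (points, with the standard error as bars; 3 samples per genotype) of 21 beta protocadherins, at their positions on chromosome 18 (GRCm38; black bars are the genes, b stands for *Pcdhb*). The 7 filled points passed an adjusted p of 0.05; all 21 points lie below 0 with the deposited scaling, and *Pcdhb6* and *Pcdhb20* lie above 0 with the factors from all genes.

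Promoter choice in these clusters depends on the DNA-binding protein CTCF and on cohesin, the ring complex that extrudes loops of chromatin, while SMCHD1 silences promoters. Of 9 such regulators listed, 0 passed in either direction in limma, where 23.4% of all genes passed. At an unadjusted p under 0.05 there was 1 regulator lower and 0 higher, beside 2638 and 1544 of all 11339 genes. Limma-voom on reads called 1 regulator lower and 0 higher, beside 1823 and 1082 of all genes. The median log2 fold change of the regulators was -0.06. *Rad21*, a cohesin subunit and the most abundant of the list, had an RPKM of 43.1, 42.8 and 40.6 in WT samples a to c and of 38.7, 40.7 and 40.2 in *Mll1KO* samples a to c. Its groups overlapped (log2 fold change -0.08, limma adjusted p = 0.197; with rod scaling 2.27e-05).

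Of the 11 non-clustered protocadherins, 4 fell, 0 rose and 7 did not pass, with a class median of -0.13 on the log2 scale. The 4 are 36.4% of the class, where 14.5% of all genes fell. At an unadjusted p under 0.05 the counts were 5 lower and 0 higher, beside 2638 and 1544 of all 11339 genes. Limma-voom on reads called 4 lower and 0 higher, beside 1823 and 1082 of all genes. Together the 11 genes summed to an RPKM of 112, 110 and 111 in WT samples a to c and of 106, 104 and 103 in *Mll1KO* samples a to c. The sums of the genotypes did not overlap. With median-of-ratios or trimmed-mean factors 2 passed, and leaving out a library left 2 (without WT a or *Mll1KO* c), 1 (without WT b, WT c or *Mll1KO* b) or 3 (without *Mll1KO* a).

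The delta-2 subgroup, which binds regulators of the actin skeleton, held 3 of these 4 genes, out of 5 listed. The 3 are 60% of the subgroup, where 14.5% of all genes fell. *Pcdh10* acts in the growth of axons and the elimination of synapses. Its RPKM was 11.95, 13.0 and 13.0 in WT samples a to c and 10.7, 10.2 and 10.4 in *Mll1KO* samples a to c. The knockouts were close together and below all WT samples, of which WT a was lowest. The mean was 12.6 ± 0.596 (SD, n = 3) for WT and 10.4 ± 0.215 (SD, n = 3) for the knockouts. It fell by 0.28 on the log2 scale (95% interval -0.39 to -0.16, limma adjusted p = 0.00512) and passed in all 18 settings.

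*Pcdh17*, which acts in axon extension and at synapses, had an RPKM of 8.21, 8.69 and 8.50 in WT samples a to c and of 7.31, 6.67 and 7.54 in *Mll1KO* samples a to c. All knockouts were lower, with *Mll1KO* b the lowest. It fell by 0.24 on the log2 scale (95% interval -0.38 to -0.10, limma adjusted p = 0.0220), and the gene did not pass without WT b (limma adjusted p = 0.0837), WT c (0.0579) or *Mll1KO* b (0.0703). *Pcdh19*, an X-linked gene mutated in an epilepsy that affects mostly girls, had an RPKM of 5.02, 5.00 and 5.05 in WT samples a to c and of 4.47, 4.44 and 4.34 in *Mll1KO* samples a to c. Samples of a genotype were nearly equal and the groups were apart. It fell by 0.18 on the log2 scale (95% interval -0.31 to -0.05, limma adjusted p = 0.0493), just inside the threshold, and did not pass in any fit that left out a library: the adjusted p was 0.0971, 0.123 and 0.111 without WT a, b and c, and 0.0695, 0.0964 and 0.131 without *Mll1KO* a, b and c. It did not pass with the 3 factors from all genes (limma adjusted p = 0.102, 0.0951 and 0.0959) or with a replicate block (0.0941) either. The other delta-2 genes, *Pcdh8* and *Pcdh18*, were at -0.14 and -0.13 (limma adjusted p = 0.0851 and 0.311).

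In the delta-1 subgroup 1 of 4 genes fell (25%, where 14.5% of all genes fell). Whether the subgroups delta-1 and delta-2 differ was not tested. The gene that fell was *Pcdh1*, an adhesion protein of epithelia and neurons. Its RPKM was 14.1, 14.1 and 13.7 in WT samples a to c and 13.1, 11.1 and 11.7 in *Mll1KO* samples a to c. *Mll1KO* a was nearest to WT and still below it. *Pcdh1* fell by 0.23 on the log2 scale (95% interval -0.37 to -0.08, limma adjusted p = 0.0299). The gene did not pass without WT a, b or c (limma adjusted p = 0.0765, 0.0898 and 0.0574), without *Mll1KO* b or c (0.0939 and 0.0958), or with median-of-ratios or trimmed-mean factors (0.0566 and 0.0543). *Pcdh7* and *Pcdh9*, both abundant, had overlapping groups. The RPKM of *Pcdh7* was 15.8, 14.7 and 16.0 in WT samples a to c and 15.1, 15.8 and 15.5 in *Mll1KO* samples a to c. Its log2 fold change had a 95% interval of -0.11 to 0.11, and 21.1% of its exon bases lie in another gene model. For *Pcdh9* the 95% interval was -0.08 to 0.13. With rod scaling the 2 genes were at -0.34 and -0.31 on the log2 scale (limma adjusted p = 0.000189 and 0.000334), *Pcdh7* was at 0.03 with the factors from all genes, 0.01 and 0.02 without WT a and c and 0.02 without *Mll1KO* a, and *Pcdh9* was at -0.01 without WT b.

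*Pcdh15*, the partner of cadherin 23 and an Usher gene, is made in photoreceptors and had the highest mean RPKM of the 50 members over both genotypes (19.9), although in WT alone *Pcdhgc4* (20.8) and *Cdh2* (20.5) were above it (19.5). Its RPKM was 21.2, 18.3 and 19.1 in WT samples a to c and 20.3, 21.0 and 19.3 in *Mll1KO* samples a to c. The groups overlapped, with the highest and the lowest value both in WT. The log2 fold change was 0.05 (95% interval -0.08 to 0.19, limma adjusted p = 0.576), and -0.28 with rod scaling (limma adjusted p = 0.000672). The interval leaves out a fall of the size seen in *Cdh23*, whose interval ends at -0.58, although the difference between the 2 genes was not tested. *Pcdh20* had few reads (between 215 and 242 in a library) and a log2 fold change of 0.10 (limma adjusted p = 0.532), which was 0.00 without WT a, 0.03 without *Mll1KO* c and -0.22 with rod scaling (limma adjusted p = 0.0787).

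Catenins link classical cadherins to actin. Of 9 catenin and adaptor genes listed, 3 fell, 0 rose and 6 did not pass in limma, where 14.5% of all genes fell and 8.85% rose. The list had a median log2 fold change of -0.06, against -0.03 for all genes. At an unadjusted p under 0.05, 4 of the list were lower and 0 higher, beside 2638 and 1544 of all 11339 genes. Limma-voom on reads called 4 of the list lower and 0 higher, beside 1823 and 1082 of all genes. The neuronal catenin *Ctnnd2*, found at synapses, had an RPKM of 31.8, 30.6 and 30.9 in WT samples a to c and of 26.2, 27.3 and 26.3 in *Mll1KO* samples a to c. The groups were far apart compared with their spread, and the gene fell by 0.22 on the log2 scale (standard error 0.04, limma adjusted p = 0.00381). *Ctnna2*, the neuronal alpha catenin, had an RPKM of 9.87, 11.1 and 10.7 in WT samples a to c and of 9.22, 8.88 and 8.86 in *Mll1KO* samples a to c. All knockouts were lower, with WT a nearest to them. It fell by 0.23 on the log2 scale (limma adjusted p = 0.0193) and did not pass without WT b (limma adjusted p = 0.0837), WT c (0.0579), *Mll1KO* b (0.0553) or *Mll1KO* c (0.0657).

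*Jup* (plakoglobin), a relative of beta catenin, had an RPKM of 10.6, 10.4 and 11.1 in WT samples a to c and of 9.78, 9.26 and 8.30 in *Mll1KO* samples a to c. The knockouts were lower, *Mll1KO* c the most. *Jup* fell by 0.23 on the log2 scale (limma adjusted p = 0.0329), and the gene did not pass without WT a, b or c (limma adjusted p = 0.0695, 0.0688 and 0.0964), without *Mll1KO* b or c (0.0612 and 0.108), with a replicate block (0.0600) or with the 3 factors from all genes (0.0617, 0.0553 and 0.0574). Beta catenin itself (*Ctnnb1*), the most abundant gene of the list, had an RPKM of 81.3, 89.6 and 90.7 in WT samples a to c and of 85.8, 82.7 and 85.3 in *Mll1KO* samples a to c. These groups overlapped (log2 fold change -0.04, limma adjusted p = 0.572; with rod scaling -0.38, limma adjusted p = 0.000133).

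Among 11 listed genes of the wider cadherin superfamily 2 fell, 1 rose and 8 did not pass, with a median log2 fold change of 0.04. These 3 of 11 are near the share of all genes that passed (23.4%). *Dchs1*, a giant cadherin that pairs with *Fat4* in planar polarity, had an RPKM of 5.07, 5.39 and 5.22 in WT samples a to c and of 3.29, 3.73 and 3.44 in *Mll1KO* samples a to c. The knockouts were far below WT, at 66.7% of its mean, and the gene fell by 0.57 on the log2 scale (standard error 0.07, limma adjusted p = 0.000460). *Celsr2* and *Celsr3*, seven-pass cadherins of planar polarity and axon tracts, went in opposite directions. The RPKM of *Celsr2* was 15.7, 16.3 and 16.4 in WT samples a to c and 19.8, 19.0 and 18.6 in *Mll1KO* samples a to c. That of *Celsr3* was 28.2, 28.8 and 28.2 in WT samples a to c and 26.5, 25.8 and 23.9 in *Mll1KO* samples a to c. Neither gene had overlapping groups.

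The log2 fold change of *Celsr2* was 0.25 (limma adjusted p = 0.00426), but -0.09 with rod scaling (limma adjusted p = 0.200). For *Celsr3* it was -0.16 (limma adjusted p = 0.0347), and this gene did not pass without WT a, b or c (limma adjusted p = 0.0641, 0.113 and 0.0708), without *Mll1KO* b or c (0.0615 and 0.123), with no variance trend (0.0653) or with the 3 factors from all genes (0.0859, 0.0777 and 0.0791). The calsyntenin gene *Clstn1*, a cargo adaptor in axons and the most abundant of this list, had an RPKM of 363, 378 and 379 in WT samples a to c and of 379, 390 and 381 in *Mll1KO* samples a to c. The difference was small (log2 fold change 0.04, limma adjusted p = 0.553) and turned to -0.30 with rod scaling (limma adjusted p = 0.000290).

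Markers of cell types moved between the genotypes as well, and their part in the results on cadherins was not tested. Their counts are to be read beside all genes, of which 14.5% fell and 8.85% rose. Of 8 bipolar cell markers, 5 fell and 0 rose, with summed RPKM of 443, 439 and 431 in WT samples a to c and of 366, 360 and 371 in *Mll1KO* samples a to c. Of 6 listed horizontal cell markers 5 fell and 0 rose, with sums of 117, 120 and 121 in WT and 87.2, 78.5 and 79.5 in *Mll1KO*. Of 7 listed ganglion cell markers 6 fell and 0 rose, with sums of 459, 419 and 445 in WT and 359, 321 and 293 in *Mll1KO*. The most abundant markers of horizontal and ganglion cells were *Nefm* and *Sncg*, and *Lhx1*, *Gja10*, *Pou4f3* and *Isl2* were not listed. *Nefm* made up most of the horizontal cell sums, with 69.6, 70.2 and 71.5 in WT and 55.3, 46.4 and 44.7 in *Mll1KO*. The horizontal cell marker that did not pass was *Calb1* (log2 fold change -0.14, limma adjusted p = 0.198). Amacrine cell markers, led by *Slc32a1*, were divided, with 3 of 8 lower and 2 higher and sums of 218, 209 and 219 in WT and 213, 212 and 238 in *Mll1KO*.

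Rod, cone and Müller glia markers mostly went up with the deposited scaling: 8 of 10, 6 of 8 and 6 of 10 rose and 1 fell in each. Among all genes 8.85% rose and 14.5% fell. For cones, led by *Opn1mw*, the sums were 340, 355 and 371 in WT and 408, 427 and 446 in *Mll1KO*. For Müller glia, led by *Glul*, they were 1443, 1419 and 1568 in WT and 1832, 1918 and 1883 in *Mll1KO*. In all 3 lists the sum in each knockout was above each WT sample. The 2 listed astrocyte markers summed to 7.11, 7.69 and 6.99 in WT and 13.7, 12.1 and 12.2 in *Mll1KO*, *Pax2* was not listed, and 1 rose, *Gfap*, with an RPKM of 3.81, 4.40 and 4.16 in WT samples a to c and of 10.2, 8.50 and 8.42 in *Mll1KO* samples a to c.

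The endothelial markers, to be read beside *Cdh5*, summed to 84.9, 85.5 and 83.5 RPKM in WT samples a to c and to 68.0, 61.4 and 62.4 in *Mll1KO* samples a to c. Among 7 listed, 3 were lower and 1 higher, where 14.5% of all genes fell and 8.85% rose. *Kdr* was the most abundant. Of 4 listed pericyte markers, led by *Rgs5*, 3 fell, with sums of 44.8, 41.0 and 41.3 in WT and 35.3, 34.8 and 38.1 in *Mll1KO*. *Emcn* and *Kcnj8* were not listed. Both vessel lists were lower in every knockout than in every WT sample. None of 2 listed microglia markers passed in limma or limma-voom or had an unadjusted p under 0.05; *Csf1r* was the most abundant, *P2ry12*, *C1qa*, *Aif1* and *Tmem119* were not listed, and the sums were 6.64, 6.71 and 6.16 in WT and 6.31, 7.49 and 6.53 in *Mll1KO*. Genes of the pigment epithelium, which lies behind the retina, varied from library to library, with sums of 202, 101 and 308 in WT and 87.7, 187 and 91.2 in *Mll1KO*. They were high in WT a, WT c and *Mll1KO* b, and of the 4 listed, led by *Ttr*, 0 passed (1 lower and 0 higher at an unadjusted p under 0.05, 0 in limma-voom), while *Rpe65*, *Best1*, *Tyr* and *Lrat* were not listed.

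MLL1 has a CXXC domain, which binds DNA at CG dinucleotides that are not methylated, and promoters differ widely in how many CG they hold. RefSeq promoters of build GRCm38.p6, from 250 bases before to 50 bases after the start used for that set, were matched for 20 of the 50 members. The clustered protocadherins, *Cdh2* and *Pcdh1* were left out of this matching, so the 20 do not show how many members could be matched. Among those left out, 9 clustered protocadherins and *Pcdh1* had passed the test. With a whole class missing and 20 members matched, classes or calls cannot be compared, and such a comparison is void. Sequences are therefore shown only for 4 of the 6 matched members that passed the test, from different classes or directions. The start used is not always the start of the gene in GENCODE vM21. In *Cdh10*, *Cdh12*, *Cdh18* and *Pcdh15*, among others, the window lies inside the gene. The motif CG reads the same on both strands, and 94.6% of 32851 promoters held at least 1. Their median was 7. In the promoter of *Cdh8* (chr8:99416422-99416721, minus strand) there were 21 CG, a number reached by 24.8% of promoters, and in that of *Pcdh10* (chr3:45378148-45378447, plus strand) 24, reached by 20.0%. *Cdh23* (chr10:60696441-60696740, minus strand) had 5, reached by 62.0%, and *Cdh9* (chr15:16728665-16728964, plus strand), the member that rose, had 8, reached by 48.6%. The *Cdh9* window contains the GENCODE start of the gene at 16728756, and most of the window lies after that start. The other matched members that passed, *Pcdh17* and *Pcdh19*, had 26 and 18 (reached by 16.9% and 29.7%), and the 14 matched members that did not pass had between 2 and 38. Capitals mark each CG. The count describes the sequence only, and binding of MLL1 was not measured.
Cdh8: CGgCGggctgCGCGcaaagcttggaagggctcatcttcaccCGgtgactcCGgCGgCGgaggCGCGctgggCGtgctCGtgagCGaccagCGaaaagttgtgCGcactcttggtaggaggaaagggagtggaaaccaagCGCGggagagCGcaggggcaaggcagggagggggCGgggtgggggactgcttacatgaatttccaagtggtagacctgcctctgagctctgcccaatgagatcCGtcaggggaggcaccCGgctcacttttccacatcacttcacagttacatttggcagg
Pcdh10: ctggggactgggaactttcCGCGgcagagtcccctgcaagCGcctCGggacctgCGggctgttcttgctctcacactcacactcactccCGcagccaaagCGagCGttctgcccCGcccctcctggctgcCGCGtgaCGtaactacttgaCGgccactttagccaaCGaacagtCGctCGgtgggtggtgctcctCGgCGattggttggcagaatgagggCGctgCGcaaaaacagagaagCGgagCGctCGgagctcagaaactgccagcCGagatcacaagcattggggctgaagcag
Cdh23: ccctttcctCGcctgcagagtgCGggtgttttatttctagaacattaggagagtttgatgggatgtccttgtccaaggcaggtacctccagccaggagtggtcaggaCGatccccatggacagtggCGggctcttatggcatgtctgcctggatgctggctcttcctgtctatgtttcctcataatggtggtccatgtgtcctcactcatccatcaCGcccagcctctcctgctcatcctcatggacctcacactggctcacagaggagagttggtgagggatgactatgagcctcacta
Cdh9: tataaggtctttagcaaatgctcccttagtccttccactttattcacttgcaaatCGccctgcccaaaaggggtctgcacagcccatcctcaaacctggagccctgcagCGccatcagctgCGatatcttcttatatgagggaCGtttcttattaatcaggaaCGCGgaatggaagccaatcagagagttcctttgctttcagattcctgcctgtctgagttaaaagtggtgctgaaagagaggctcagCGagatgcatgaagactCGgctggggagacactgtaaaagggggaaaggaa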

How the data were processed

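RNA of 3 *Mll1KO* and 3 WT retina samples was sequenced by the authors as single-end reads, aligned with STAR and counted per gene with featureCounts. From the counts the authors computed the deposited RPKM, after removing genes below their minimum. The deposited table also holds the authors' log2 fold changes, log2 mean CPM, p-values and FDR from edgeR, which were not used. The members and lists were chosen with earlier results of these data known.

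Of 11404 lines, 11339 carried distinct gene IDs, and 18 symbols turned into dates were restored; repeated lines held identical values. The strandedness of counting is not given. Library totals were inferred from ratios of low RPKM values. Reads were then recovered with the GENCODE vM21 exon length where it gave whole numbers within 0.005 reads in every library. This held for 53.4% of the genes found there. Otherwise the smallest length that did so, with over 5 CPM in at least 5 samples, was taken. Whole reads were reached for 100% of genes, and between 98.4% and 98.5% of a library's total lay on listed genes. Positions came from GENCODE vM21, in which 11329 IDs were found.

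Values were compared as log2(RPKM + 0.1), which understates the change of low genes, with limma (version 3.58.1, R 4.3.3), a variance trend and Benjamini-Hochberg adjustment over all genes. The authors used edgeR on counts; limma stood in here, as the design foresaw, because the deposited unit is RPKM. The procedure was tested on simulated data, with an outcome that is not reported here, so that no result rests on it. Named were the members with an adjusted p under 0.05, the most abundant member of each class, *Kmt2a*, and of the partner lists the genes that passed and the most abundant; further members were named after their values were seen. Alternatives were pseudocounts of 1 and 0.01, a minimum mean RPKM of 1, 4 scalings, limma-voom, other variance trends, a replicate block, omission of each sample, and the last of repeated lines. The most abundant marker of 2 cell types is not reported here.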

Additional observations from a re-analysis of the deposited data

How the results depend on the processing

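Counts of passing members moved with the scaling and with 1 sample left out, whereas *Cdh4*, *Cdh8*, *Cdh11* and *Pcdh10* passed in all 18 settings. With rod scaling 9928 of all genes passed, 46 members as lower and 0 as higher, with 11 classical cadherins, 23 clustered and 10 non-clustered protocadherins; the non-clustered count was 2 with median-of-ratios and with trimmed-mean factors. Rod scaling moves all genes alike, by about -0.33, so that *Cdh13* (-0.28), *Pcdh15* (-0.28), *Celsr2* (-0.0877), *Clstn1* (-0.30), *Pcdh9* (-0.31), *Pcdh20* (-0.22), *Cdh10* (-0.15), *Cdh18* (-0.13), *Cdh20* (-0.21) and *Adgrv1* (-0.0913), each above 0 by less than this shift at the deposited scaling, turned negative. *Whrn* changed sign with median-of-ratios, upper-quartile and trimmed-mean factors (0.0239, 0.0199 and 0.0214). Why the summed rod genes differ between the genotypes cannot be told from these values: the cause was not tested. Leaving out each sample in turn gave 1687 to 2549 genes, 9 to 15 members lower, 1 member higher in each fit, 4 to 5 classical cadherins, 3 to 8 clustered and 1 to 3 non-clustered protocadherins, with fewer samples per fit; *Cdh13* then ranged from -0.0433 to 0.10 and *Whrn* from -0.0321 to 0.0153.

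With the replicate letter as a replicate block, 14 members were lower and 1 higher; 15 kept their call, and *Pcdhb16*, *Pcdha11* and *Pcdh19* did not (limma adjusted p = 0.0574, 0.0775 and 0.0941; over all settings these genes reached 0.0959, 0.134 and 0.131). Deviations of samples with the same letter correlated at -0.04, -0.19 and -0.01 (a, b and c), below the highest correlation with another letter in each case (0.10, 0.13 and 0.09), so the letters were not taken to pair the samples. Pseudocounts, the missing trend and the choice of repeated line changed no call of a member, though with a pseudocount of 1 *Cdh23* moved from -0.83 to -0.32, and the filter on mean RPKM removed *Cdh10* and *Cdh23*. Changes of members with few reads, of which *Cdh23* had the fewest (93), are limited by depth.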
